A study of Homo sapiens with 6 samples.

Results

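The genes described here are 10 transcriptional outputs and feedback inhibitors of ERK signalling: DUSP4, DUSP5, DUSP6, SPRY2, SPRY4, SPRED1, ETV4, ETV5, FOSL1 and EGR1. They were listed by name, but with earlier results of these data known, so no test of the 10 as a set was run. They are 10 of the 27394 genes in the table, and all 10 had a row. PANC-1, a pancreatic cancer line kept in culture, was infected to carry either a control shRNA (shControl) or one that knocks down ZDHHC20 (shZDHHC20). Each group is represented by 3 RNA-seq libraries. ZDHHC20 encodes a palmitoyltransferase, an enzyme that attaches a fatty acid to cysteines of other proteins, and both groups shared the line, the infection and the serum-fed culture. The labels do not name the shRNA sequence, whether cells were cloned or the time after infection, and they do not say whether replicates came from separate cultures, so p-values measure the spread between these libraries, which may be technical. All 6 libraries came from 1 line, and the table has no sample without infection.

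The RAS-RAF-MEK-ERK cascade carries growth signals from receptors at the membrane to the nucleus. Active ERK phosphorylates transcription factors, which switch on a set of genes that includes further transcription factors and several inhibitors of the cascade itself. The dual-specificity phosphatases (DUSP) remove phosphate from ERK and related kinases, the Sprouty (SPRY) and SPRED proteins act further up between receptors and RAF, and ETV4, ETV5, FOSL1 and EGR1 are transcription factors induced through the pathway. The mRNA levels of such genes are often read as a measure of pathway output in pancreatic cancer, but ERK phosphorylation was not measured in these libraries.

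Values are normalized counts, which are gene counts scaled by 1 factor per library and not divided by gene length. Expressed in steps of the smallest value, the libraries summed to between 16575546 and 18441049, which would be their reads on genes if 1 step is 1 read. ZDHHC20 itself had 2001, 2033 and 1940 normalized counts in the shControl libraries, against 872, 779 and 893 in the knockdown, so its labelled knockdown was seen in every library. shZDHHC20 replicate 2 stood apart, with an SD of log2 differences from the other shZDHHC20 libraries of 0.178 and 0.198, against 0.0722 between those other libraries and 0.0674 to 0.0718 within shControl. Of the keratins listed as markers of the line, KRT8 averaged 56187 and 51529 and KRT18 19660 and 17570 normalized counts in shControl and shZDHHC20. KRT19 averaged 5917 and 6304, but KRT7 only 86.5 and 85.3. VIM, which encodes vimentin and is on the same list, averaged 21163 and 21669. EPCAM, an epithelial surface protein of the same marker list, averaged 72.4 in shControl and 525 in shZDHHC20. Of 15 markers of acinar, endocrine, immune, endothelial and fibroblast cells, 9 had no row and 5 summed to 7.01 to 13.1 in shControl and 15.97 to 21.2 in shZDHHC20, while the collagen gene COL1A1 averaged 3931 and 3260. The part of these markers and of replicate 2 in the values of single genes was not tested beyond leaving each library out, and in bulk RNA fewer cells of a type and less RNA per cell cannot be told apart.

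Of the 10 genes, 6 were lower in shZDHHC20 at an adjusted p under 0.05, none was higher, and 4 did not pass. The 6 were EGR1, FOSL1, ETV5, DUSP5, SPRY4 and SPRED1. The tests were two-sided with limma's moderated test on log2(normalized count + 0.1). On that scale, single values near 0 can distort the change of low genes. The p-values were adjusted over the 22189 genes whose mean reached 1. All 10 passed that filter. Among all genes tested, 6.84% were lower and 4.61% were higher by the same threshold. The power of the test rises with the level, and 9 of the 10 genes had means of 100 or more. Among all genes at that level, 13.3% were lower and 8.41% were higher. In 8 of the 10, every shZDHHC20 library lay below every shControl library, against 14.8% of all genes tested and 23.9% of those with a mean of at least 100. The median log2 fold change of the 10 was -0.34, beside 0.01 over all genes tested and -0.01 over those with a mean of at least 100. By the criteria of an unadjusted p under 0.01 and a fold of at least 1.5, EGR1 alone was counted, and 2.45% of all genes tested in either direction were. No exact permutation test of 3 libraries against 3 can give a p below 0.1. Without the mean-variance trend in limma, only EGR1 kept an adjusted p under 0.05 among the 10, and all genes called fell in number from 2541 to 351. Without shControl replicate 1, 2 or 3, the number of the 10 called lower was 4, 4 and 4.

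**Figure D1:**
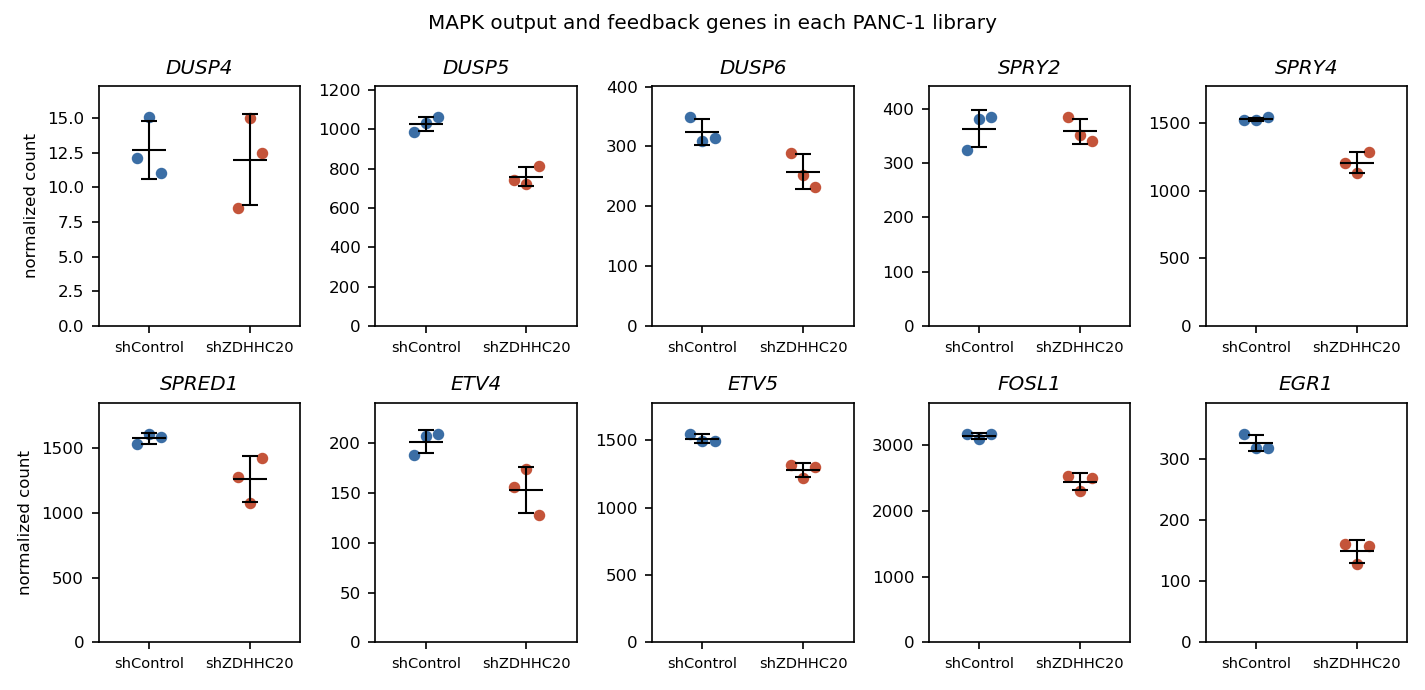
Normalized counts of the 10 genes in each library, with a panel per gene, points for the 3 shControl and 3 shZDHHC20 libraries and lines with bars for the mean and SD. The shZDHHC20 points lie below all shControl points in 8 panels and overlap with them for DUSP4 and SPRY2.

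EGR1 showed the largest log2 fold change of the 10. This zinc-finger transcription factor is an immediate-early gene, induced within a short time of ERK activation by serum response factor and its partners at its promoter. EGR1 (ENSG00000120738, GRCh38 chr5:138465490-138469315, plus strand) had 341, 317 and 317 normalized counts in shControl and 161, 128 and 157 in shZDHHC20. The groups were far apart beside their own spread. The mean fell from 325 ± 13.4 to 149 ± 18.2 (SD, n = 3 each), 45.7% of control, with a log2 fold change of -1.14 (SE 0.114, 95% confidence interval -1.38 to -0.89) and an adjusted p of 3.65e-05 by limma. Ranked by p over all genes tested, it was number 106.

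The promoter of EGR1 is shown because its serum response elements are the textbook link between ERK and this gene, and that of SPRY4, which also fell and lies on the same chromosome, is shown beside it for contrast. Both are the 250 bases before the RefSeq start (GRCh38.p14), 5′ to 3′ on the gene's strand, chr5:138465229-138465478 on the plus strand for EGR1 and chr5:142324248-142324497 on the minus strand for SPRY4. Capitals mark CArG boxes, the sites bound by serum response factor, with CC and GG around a run of A and T bases.
EGR1: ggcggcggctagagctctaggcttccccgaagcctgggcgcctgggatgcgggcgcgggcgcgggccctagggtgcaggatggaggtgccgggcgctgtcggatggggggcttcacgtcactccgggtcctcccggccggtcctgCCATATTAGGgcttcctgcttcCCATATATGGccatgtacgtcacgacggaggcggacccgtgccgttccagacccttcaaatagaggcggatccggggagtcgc
SPRY4: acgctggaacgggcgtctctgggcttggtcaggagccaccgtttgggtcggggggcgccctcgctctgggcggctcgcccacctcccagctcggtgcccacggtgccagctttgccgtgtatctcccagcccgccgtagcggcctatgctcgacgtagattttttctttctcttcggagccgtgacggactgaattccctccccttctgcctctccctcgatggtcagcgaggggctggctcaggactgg
The EGR1 stretch holds 2 CArG boxes, 105 to 96 and 83 to 74 bases before the start, and the SPRY4 stretch holds none. GC content was 68.4% and 65.6%. RefSeq windows of 300 bases, from 250 before to 50 after the start, were at hand for 5 of the 10 genes, which were DUSP6, SPRY2, SPRY4, SPRED1 and EGR1, with 7 windows in all. Both strands of each were searched for the CArG box, for the AP-1 site (TGACTCA or TGAGTCA), the cyclic AMP response element (TGACGTCA, which does not contain the AP-1 letters) and an ETS site (CCGGAAGT or ACCGGAAG, which overlap each other). The 2 CArG boxes of EGR1 were the only matches in the 7 windows. The windows of SPRY4, DUSP6 and SPRED1 lie inside the spans of these genes in GENCODE 29. The outermost starts of these genes were therefore not searched, which limits the contrast with EGR1. Over all 35116 windows, 1.29% held a CArG box, 4.95% an AP-1 site, 1.85% a cyclic AMP response element and 5.18% an ETS site. A match describes letters only, and factor binding was not measured.

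FOSL1 encodes FRA-1, a FOS-family partner of JUN in the AP-1 transcription factor, whose gene and protein both respond to ERK. FOSL1 (ENSG00000175592, chr11:65892049-65900573, minus strand) had 3170, 3094 and 3174 normalized counts in shControl and 2539, 2298 and 2500.2 in shZDHHC20. Its groups did not overlap. The mean fell to 77.7% of control, from 3146 ± 44.8 to 2446 ± 129, with a log2 fold change of -0.36 (SE 0.0531, interval -0.48 to -0.25) and an adjusted p of 0.000639 by limma.

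ETV4 and ETV5 are closely related ETS transcription factors of the PEA3 group. ETV5 (ENSG00000244405, chr3:186046308-186110318, minus strand) had 1547, 1490.5 and 1497 normalized counts in shControl and 1318, 1219.9 and 1301 in shZDHHC20. It fell to 84.7% of control, by 0.24 on the log2 scale (SE 0.0576, interval -0.37 to -0.12), with an adjusted p of 0.0158 by limma. This was the smallest of the called changes. It did not pass without any 1 of the shControl libraries, where the adjusted p was 0.0977, 0.0644 and 0.0713 without replicate 1, 2 and 3. ETV4 (ENSG00000175832, chr17:43527844-43579620, minus strand) had 188, 207 and 209 normalized counts in shControl and 156, 174 and 128 in shZDHHC20. Its groups did not overlap either, with means of 201 ± 11.7 and 153 ± 23.1. The log2 fold change of -0.41 (SE 0.131, interval -0.69 to -0.13) was larger than that of ETV5, but the adjusted p was 0.0622 by limma. Without shZDHHC20 replicate 2, the adjusted p of ETV4 was 0.0092.

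Among the DUSP phosphatases, DUSP5 acts on ERK in the nucleus and DUSP6 on ERK in the cytoplasm. DUSP5 (ENSG00000138166, chr10:110497838-110511544, plus strand) had 988, 1031 and 1061 normalized counts in shControl and 742, 720.3 and 814 in shZDHHC20. It fell to 73.9% of control, from 1027 ± 36.7 to 759 ± 49.1, a log2 fold change of -0.44 (SE 0.0688, interval -0.59 to -0.29) with an adjusted p of 0.00111 by limma. After EGR1 it had the largest change among the genes called. DUSP6 (ENSG00000139318, chr12:89347232-89353271, minus strand) had 349, 308 and 313 normalized counts in shControl and 289, 252 and 232 in shZDHHC20. The groups did not overlap, but the gap between the lowest shControl and the highest shZDHHC20 library was small beside the spread within the groups. With means of 323 ± 21.9 and 258 ± 29.2, the log2 fold change was -0.33 (SE 0.105, interval -0.56 to -0.10) and the adjusted p 0.0611 by limma. Without shZDHHC20 replicate 1 the adjusted p of DUSP6 was 0.0493.

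DUSP4, a nuclear phosphatase that acts on ERK and on the stress kinases, had few normalized counts. It (ENSG00000120875, chr8:29333064-29350668, minus strand) had 12.1, 15.1 and 11.0 normalized counts in shControl and 8.48, 15.0 and 12.5 in shZDHHC20. The groups overlapped. The log2 fold change was -0.11 (SE 0.421), with an interval from -1.02 to 0.80 that leaves room for a change as large as those of the other phosphatases in either direction, and an adjusted p of 0.914 by limma. At this level no difference was detectable.

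Of the Sprouty and SPRED genes, SPRY4 and SPRED1 fell and SPRY2 did not pass the test. Sprouty proteins restrain the cascade above RAF, and SPRED1 brings the RAS inactivator neurofibromin to the membrane. SPRY4 (ENSG00000187678, chr5:142310427-142326455, minus strand) had 1521, 1524 and 1542 normalized counts in shControl and 1206, 1128 and 1283 in shZDHHC20. The shControl libraries lay within a narrow range and all shZDHHC20 libraries lay below it. SPRY4 fell to 78.9% of control, with a log2 fold change of -0.34 (SE 0.0615, interval -0.48 to -0.21) and an adjusted p of 0.00268 by limma. SPRED1 (ENSG00000166068, chr15:38252326-38357249, plus strand) had 1529, 1608 and 1582 normalized counts in shControl and 1276, 1075 and 1423 in shZDHHC20. It fell to 80.0% of control, by 0.33 on the log2 scale (SE 0.0849, interval -0.51 to -0.15), with an adjusted p of 0.0226 by limma. Its shZDHHC20 libraries were more scattered than its shControl libraries, with SDs of 175 and 40.3. Its call was lost without shControl replicate 1, 2 or 3 (adjusted p 0.0746, 0.113 and 0.101) and without shZDHHC20 replicate 1 (0.0825).

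SPRY2 (ENSG00000136158, chr13:80335976-80340951, minus strand) had 324, 382 and 384 normalized counts in shControl and 385, 352 and 341 in shZDHHC20. The highest value of all 6 was in shZDHHC20 and the lowest in shControl. The means were 363 ± 33.9 and 359 ± 22.9, the log2 fold change was -0.01 (SE 0.0955) and the adjusted p was 0.953 by limma. The interval, -0.22 to 0.19, holds neither the fitted change of SPRY4 nor that of DUSP5, although the difference between these genes was not tested. The sign of this value turned under some alternatives, as did that of DUSP4.

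**Figure D2:**
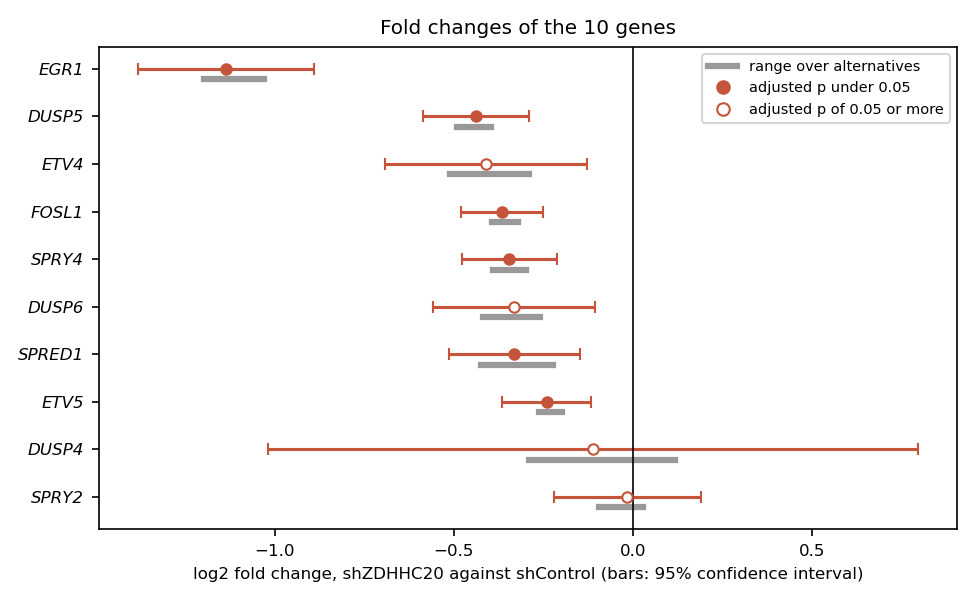
Log2 fold change of shZDHHC20 over shControl for the 10 genes on the log2(normalized count + 0.1) scale, with bars for the 95% confidence interval and filled points for an adjusted p under 0.05. EGR1 lies at -1.14, apart from the other genes called, which lie between -0.44 and -0.24, and DUSP4 has the widest interval.

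The 10 genes did not share a single low library. shZDHHC20 replicate 2 held the lowest value of the shZDHHC20 group for 6 genes (DUSP5, SPRY4, SPRED1, ETV5, FOSL1 and EGR1), replicate 3 for 3 (DUSP6, SPRY2 and ETV4) and replicate 1 for DUSP4. The 6 genes called lower are the same 6 for which replicate 2 was the lowest. Relative to the shControl mean, the median of the 10 genes on the log2 scale was -0.33, -0.40 and -0.29 in shZDHHC20 replicates 1, 2 and 3. In shControl it was -0.02, 0.00 and 0.01. Without shZDHHC20 replicate 2, 7 of the 10 were called lower, and 6 without replicate 1 or replicate 3. All 3 knockdown libraries therefore carried a lower median, including the pair that resembled each other.

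Levels per kilobase of merged exons, taken from GENCODE 29, put the genes on a scale on which they can be compared with each other. In shControl, the level was highest for FOSL1, at 1667 ± 23.7 normalized counts per kilobase, followed by DUSP5 at 393 ± 14.05, ETV5 at 261 ± 5.34, SPRY4 at 233 ± 1.75 and SPRED1 at 190.4 ± 4.88. SPRY2 at 120 ± 11.2 and EGR1 at 104 ± 4.26 came next, and theirs were the only neighbouring levels in the order whose libraries overlapped. DUSP6 at 69.8 ± 4.74, ETV4 at 55.8 ± 3.24 and DUSP4 at 1.75 ± 0.288 were the lowest. FOSL1 was thus 13.9 times as high as SPRY2 per kilobase, a ratio that was 14.04 with the longest transcript as the length. With that length ETV4 stood above DUSP6 in shControl (82.9 and 73.5 per kilobase), with overlapping libraries, and the other genes kept their places. In shZDHHC20, EGR1 had a mean of 47.3 per kilobase, below DUSP6 at 55.6, while it had stood above DUSP6 in shControl. The shZDHHC20 libraries of EGR1 (40.7 to 51.3) overlapped with those of DUSP6 (50.1 to 62.5) and of ETV4 (35.5 to 48.2). The other means kept their order, from FOSL1 at 1296 through SPRY2 at 118 and ETV4 at 42.3 to DUSP4 at 1.65.

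**Figure D3:**
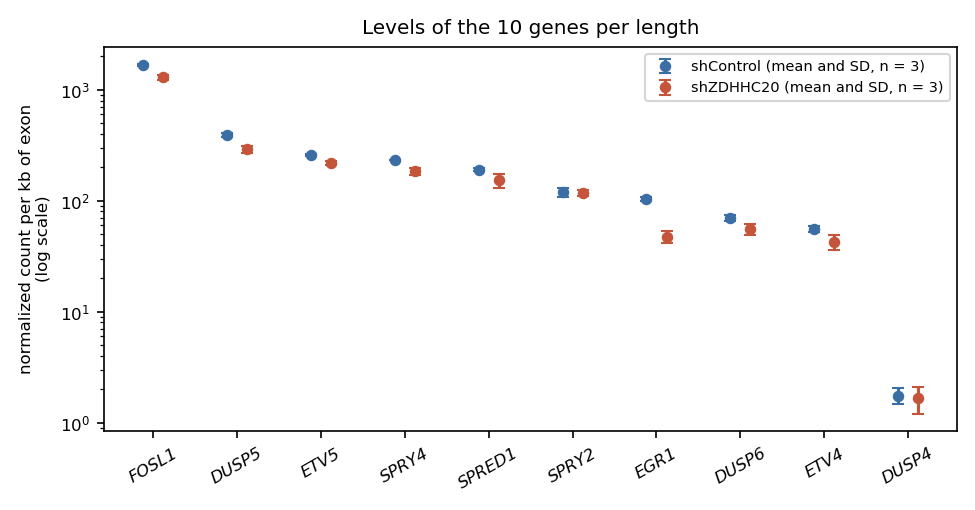
Level of each of the 10 genes in normalized counts per kilobase of merged exons, on a log axis, with points for the mean and bars for the SD of the 3 libraries of each group. The genes run from FOSL1, at 1667 in shControl, to DUSP4, at 1.75, and the mean of EGR1 lies below that of DUSP6 in shZDHHC20.

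Several of the genes overlap others in the annotation, and whether the counting used strand is not given in the sources used here, although the library kit keeps it. DUSP6, SPRY4 and ETV5 have antisense genes. ETV5 also overlaps DGKG, a protein-coding gene, and the small RNA RF00017 on its own strand, where counting by strand does not tell reads in the shared stretch apart, and no values were matched for either. The antisense gene of SPRY4, SPRY4-AS1, had 11.4 ± 4.59 and 16.3 ± 4.18 normalized counts (log2 fold change 0.57, adjusted p 0.479 by limma). ETV5-AS1 had 2.01 and 1.92 on average. ETV4 overlaps DHX8 on the other strand, which had 1120 ± 12.5 and 1051 ± 70.8 normalized counts (log2 fold change -0.09, adjusted p 0.429 by limma). If strand was not used, reads of DHX8 in the shared stretch and reads of ETV4 could not be told apart. No overlapping gene was found for DUSP4, DUSP5, SPRY2, SPRED1, FOSL1 or EGR1.

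Genes of the pathway beyond the 10 had calls in both directions, and many of these calls were lost when 1 library was left out. A list of 34 genes of the RAS-RAF-MEK-ERK cascade held more than the steps from the RAS genes to ERK. It included adaptors, RAS inactivators, RSK kinases downstream of ERK and kinases of the separate ERK5 pathway, so activators and inhibitors were counted together. Of the 34, 4 were lower, 6 were higher and 24 did not pass, with a median log2 fold change of 0.04. This is 11.8% lower and 17.6% higher, beside 13.3% and 8.41% of all genes with a mean of at least 100, a level that 33 of the 34 reached. Without shControl replicate 1, 1 was lower and 0 were higher, and without shZDHHC20 replicate 2, 5 were lower and 12 higher. RRAS2, a RAS-related GTPase, had 1071, 1114 and 1086 normalized counts in shControl and 726, 749 and 758 in shZDHHC20, a log2 fold change of -0.55 with an adjusted p of 7.81e-05, a call that held in all 18 alternatives. MAP2K1, which encodes MEK1, fell by 0.23 on the log2 scale (adjusted p 0.0172), but lost its call in 6 of 18 alternatives. Among them were the fits without shControl replicate 1, 2 or 3 (adjusted p 0.0976, 0.0785 and 0.0715) and without shZDHHC20 replicate 1 (0.0857). With any 1 library left out, the log2 fold change of MAP2K1 stayed between -0.24 and -0.21. MAP2K2, which encodes MEK2 and was named after its values were seen, was just under the threshold (-0.19, adjusted p 0.0451) and above it in 12 of 18 alternatives. SHOC2, a scaffold that helps to activate RAF (0.35, adjusted p 0.00835), PTPN11, the phosphatase SHP2 (0.23, adjusted p 0.0120), and BRAF (0.29, adjusted p 0.0186) were higher. Their calls were lost in 4, 5 and 4 of 18 alternatives, for all of them without the mean-variance trend and without shControl replicate 1. MAPK3, which encodes ERK1, had a log2 fold change of -0.15 (adjusted p 0.186).

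Of 20 genes listed as other feedback inhibitors, 4 were lower, 3 were higher and 13 did not pass, with a median of -0.07. The list was broad and also held DUSP8, DUSP10 and DUSP16, phosphatases mainly of JNK and p38, the phosphatase subunit PPP2R1A and the repressor CIC. Whether the listed genes act as feedback on ERK in these cells was not tested. Of all genes with a mean of at least 100, 13.3% were lower and 8.41% higher. Without shControl replicate 1, shControl replicate 3 or shZDHHC20 replicate 1 none was higher. DUSP1, a nuclear phosphatase of ERK, JNK and p38, had 1267, 1267 and 1263 normalized counts in shControl and 886, 874 and 853 in shZDHHC20, with a log2 fold change of -0.54 and an adjusted p of 6.15e-05, a call that held in all 18 alternatives. DUSP9, another ERK phosphatase, fell by 0.78 on the log2 scale (adjusted p 0.00664), from 211 ± 3.403 to 125 ± 33.7 normalized counts. SPSB1, a SOCS-box protein (-0.38, adjusted p 0.0102), and SPRED2, the relative of SPRED1 (-0.21, adjusted p 0.0168), also fell. ERRFI1, an inhibitor of EGFR, was higher (0.20, adjusted p 0.00963). The calls of SPSB1, SPRED2 and ERRFI1 were lost in 3, 5 and 4 of 18 alternatives, for all of them without shControl replicate 3 (adjusted p 0.0752, 0.0912 and 0.0759), without shZDHHC20 replicate 1 (0.0672, 0.0603 and 0.0643) and without the mean-variance trend.

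Of 34 other output genes, 33 were tested, and 8 were lower, 4 were higher and 21 did not pass, with a median of -0.09. That is 24.2% lower and 12.1% higher, beside 13.3% and 8.41% of all genes with a mean of at least 100, a level that 24 reached. The list also held ELK1, ELK3 and ELK4, transcription factors that ERK phosphorylates rather than outputs of it. ELK4 was among the 4 counted as higher (0.21, adjusted p 0.0414 by limma). Without shControl replicate 1 only 3 were lower and 3 higher. CCND1, the cyclin that starts the cell cycle, fell from 9291 ± 78.5 to 6712 ± 221 normalized counts, by 0.47 on the log2 scale (adjusted p 2.06e-05). MYC, the growth-promoting transcription factor, fell by 0.59 (adjusted p 2.79e-05), and PHLDA1 by 0.33 (adjusted p 0.000306). KLF6, a zinc-finger transcription factor, rose from 3376 ± 53.7 to 4662 ± 60.5 normalized counts (0.47, adjusted p 2.70e-05). AREG, a ligand of EGFR, had 94.98, 101 and 139 normalized counts in shControl and 219, 208 and 241 in shZDHHC20, a log2 fold change of 1.01 (adjusted p 0.000722). CCND1, MYC and KLF6 kept their calls in all 18 alternatives, and PHLDA1 and AREG in all but the fit without the mean-variance trend.

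The stress kinases JNK and p38, which share phosphatases with ERK, were listed for comparison. Of 16 such genes, 4 were lower, 1 was higher and 11 did not pass, with a median of -0.02. That is 25.0% lower and 6.25% higher, beside 13.3% and 8.41% of all genes with a mean of at least 100, a level that 13 reached. Without shControl replicate 1 or shControl replicate 3 the number lower was 1. MAP3K1 (-0.51, adjusted p 0.00382), MAP2K3 (-0.32, adjusted p 0.01001), MAPKAPK3 (-0.26, adjusted p 0.0256) and MAP2K6 (-0.76, adjusted p 0.0270) fell. MAPK13, which encodes p38 delta, rose from 49.9 ± 8.46 to 98.5 ± 17.0 normalized counts (0.98, adjusted p 0.00616). MAP3K1 and MAPK13 lost their calls without the mean-variance trend only. MAP2K3 lost its call in 3 of 18 alternatives, MAPKAPK3 in 7 of 18 and MAP2K6 in 6 of 16, for all of them without shControl replicate 1 (adjusted p 0.0709, 0.0823 and 0.133) and shControl replicate 3 (0.0742, 0.0921 and 0.0542). All adjusted p-values of these lists are from limma over all genes tested, and overlaps with other genes were not searched for them.

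**Figure D4:**
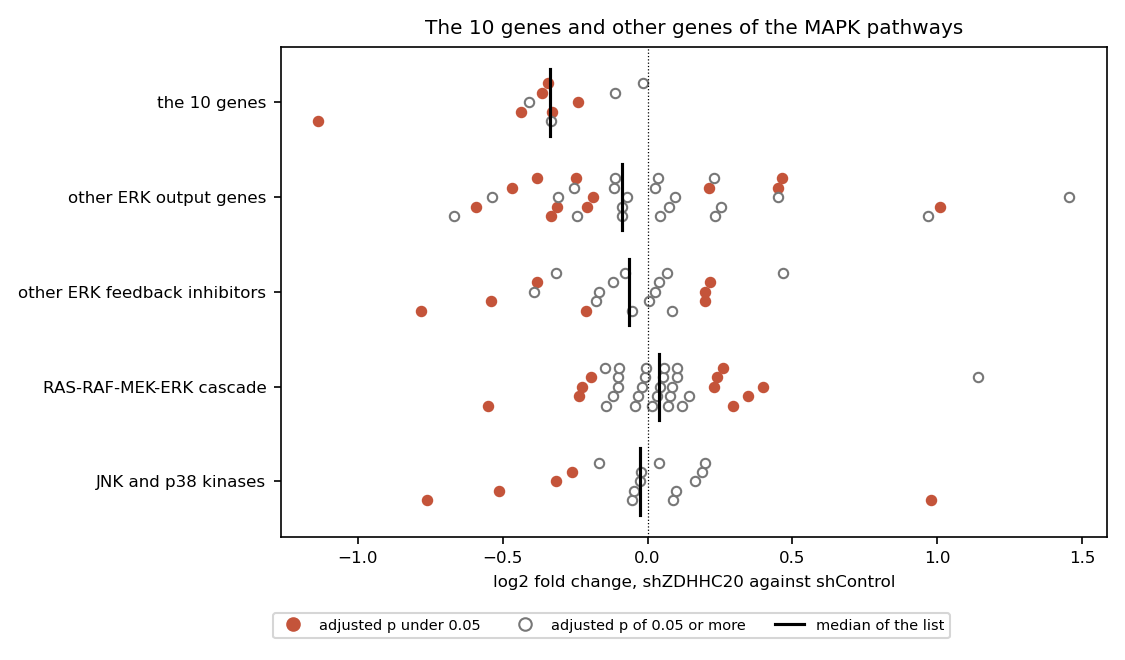
Log2 fold change of shZDHHC20 over shControl for the 10 genes and for the genes tested in each of the 4 pathway lists, with a point per gene, filled where the adjusted p was under 0.05, and a line at the median of each list. The 10 genes have a median of -0.34, and the medians of the 4 lists lie between -0.09 and 0.04.

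The pattern of DUSP6, the phosphatase often used as a readout of ERK, was compared over the 6 libraries with those of the other 10907 genes with a mean of at least 100, by the Euclidean distance of the centred log2 values. The nearest were SUSD2 (0.0873), RPS3AP6 (0.0949) and FOXQ1 (0.105). Their log2 fold changes were -0.29, -0.29 and -0.28, with adjusted p-values of 0.0868, 0.126 and 0.0785 by limma, so none passed. A change like that of DUSP6 follows from how these genes were picked. RPS3AP6 is a pseudogene, whose reads can be shared with its parent gene. None of the other 9 genes described here was among these nearest patterns, but DUSP4 was below the level searched. With 10907 genes searched and so few kept, absence does not show that a gene differed from DUSP6.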

How the data were processed

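RNA-seq of PANC-1 cells, 3 shControl and 3 shZDHHC20 libraries, was analysed from a table of 1 value per gene and library. The authors deposited a normalized signal, named as FPKM, but every value was a whole multiple of the smallest value of its library (tolerance 0.01), as counts divided by a size factor are. The test had been planned for FPKM and was used unchanged on this signal; no count test was run. No interval for counting error is given, since the reads are not known. The submitters' processing notes name hg19. The aligner, counter and annotation are not given in the sources used here. Columns named NC and siZDHHC20 were matched to the samples by group and replicate number.

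Names came from the reference table for 27175 genes and from GENCODE 29 (GRCh38) for 219, which also gave positions and lengths by gene identifier. Promoters were RefSeq sequences. With limma 3.58.1 in R 4.3.3, log2(value + 0.1) of genes whose mean reached 1 was fitted with group as the term, with a mean-variance trend, and p-values were adjusted by the Benjamini-Hochberg method. Scripts were tested on simulated data. The counting unit of the exact permutation test was the library. The genes and the 4 pathway lists were chosen with earlier results of these data known. Named genes were the 10, ZDHHC20, in every list up to 5 genes with the lowest adjusted p under 0.05 and the 3 nearest patterns to DUSP6; the study's criteria (p under 0.01, fold of at least 1.5) were read as unadjusted. MAPK3, MAP2K2 and ELK4 were named after their values were seen. Results for some single genes of the pathway lists are not reported here. Alternatives were pseudocounts of 1 and 0.01, other filters and scalings, no trend, robust moderation, a block for the replicate number and dropping single libraries.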

Additional observations from a re-analysis of the deposited data

How the results depend on the processing

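EGR1 kept an adjusted p under 0.05 in all 18 alternatives, with log2 fold changes from -1.20 to -1.03. No other gene of the 10 did. Without the mean-variance trend, 351 genes were called in all and 1 of the 10 lower, with adjusted p-values of 0.0733, 0.0995 and 0.0797 for DUSP5, SPRY4 and FOSL1, their only lost calls. In that fit the cascade list had 0 higher and 1 lower, the feedback inhibitors 0 and 1, the outputs 1 and 2, and the stress kinases 0 and 0. The cascade list had 2 lower with a pseudocount of 0.01, with quantile normalization, with equal sums, with a replicate block and with a mean of at least 100 without the trend. With equal sums, which moved the median of all genes to 0.05, 5 outputs were lower and 2 stress kinases higher, and with a mean of at least 100 without the trend 0 stress kinases were higher. DUSP6 and ETV4 passed with a mean of at least 10 (adjusted p 0.0449 and 0.0466), with robust moderation (0.0478 and 0.0488) and, in alternatives chosen after seeing the data, with a mean of at least 100 (0.0393 and 0.0420) and the same without the trend (0.0415 and 0.0378), where SPRED1 did not pass. SPRY2 turned to 0.0048 with quantile normalization and 0.0274 with equal sums.

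Leaving out 1 library in turn, 1233 to 4454 genes were called, most without shZDHHC20 replicate 2, and 4 to 7 of the 10 were lower. Higher and lower calls ranged over 0 to 12 and 1 to 5 in the cascade, 0 to 4 and 2 to 4 in the feedback inhibitors, 3 to 5 and 3 to 10 in the outputs and 1 to 3 and 1 to 4 in the stress kinases. SPRY2 ranged from -0.0947 to 0.0279 and turned to 0.0226 without shControl replicate 2, 0.0279 without shControl replicate 3 and 0.0226 without shZDHHC20 replicate 3. DUSP4 ranged from -0.29 to 0.12 and turned to 0.02 without shControl replicate 2 and 0.12 without shZDHHC20 replicate 1. Libraries with the same number did not deviate together (correlations -0.0948, -0.156 and -0.0771 over 10908 genes). Pairs with different numbers ranged from -0.0918 to 0.154. With 3 libraries per group, this check cannot exclude that the numbers pair the samples. With a replicate block 1942 genes were called, 6 of the 10 were lower, 1 feedback inhibitor was higher and 2 stress kinases were lower. The cause of these changes was not tested. The planned tests on counts were not run, since the values were handled as a signal. No gene was called higher among the 10 in any alternative.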

Other observations

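Other immediate-early genes of the output list had fitted changes in both directions, and those given here were chosen after their values were seen. Of the FOS, JUN and IER genes given here, FOSL2 alone passed, so a difference in direction between them is not shown. FOSL2 had 1243, 1229 and 1318 normalized counts in shControl and 1032, 1129 and 1033 in shZDHHC20 (log2 fold change -0.25, adjusted p 0.0220 by limma), but its call was lost in 8 of 18 alternatives, among them the fits without shControl replicate 1, 2 or 3. JUN (4136 ± 158 and 3814 ± 108, log2 fold change -0.12, adjusted p 0.164 by limma) had no overlap between groups. JUNB (1257 ± 9.63 and 1081 ± 251, -0.24, adjusted p 0.224 by limma) did, with its highest value, 1370.2, in shZDHHC20 replicate 2. FOS had 14.1, 17.1 and 28.0 normalized counts in shControl and 15.9, 12.2 and 18.3 in shZDHHC20, and the groups overlapped. FOSB had 32.3, 37.2 and 12.01 in shControl and 47.7, 51.7 and 44.3 in shZDHHC20, every shZDHHC20 library being the higher (adjusted p 0.117 by limma). IER2 had 783, 734 and 770 in shControl and 828, 1072 and 808 in shZDHHC20 (adjusted p 0.153 by limma), also without overlap. Of all 22189 genes tested, 3062 had every shZDHHC20 library higher and 3285 had every one lower. Among the 10908 with a mean of at least 100, these were 2046 and 2603. EGR2 and EGR4, the relatives of EGR1, were at 8.08 normalized counts or below in every library. EREG, a further EGFR ligand of the output list that was named after its values were seen, rose from 944 ± 33.1 to 1292 ± 90.3 normalized counts (log2 fold change 0.45, adjusted p 0.000764 by limma).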
